A study of Mus musculus with 48 samples.

Results

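The genes described here encode the epidermal growth factor (EGF) receptor, Egfr, and 6 of its ligands: Hbegf, Areg, Ereg, Tgfa, Btc and Epgn. They were chosen by name, as the rows of the raw count table whose Ensembl identifiers map to these mouse symbols, and all 7 were found among 55487 rows. The table holds bulk RNA-seq counts from 48 libraries of kidney slices kept alive in culture, all from male mice of C57BL/6J or DBA/2J, the inbred founder strains of the BXD panel. Each strain was measured under 8 conditions, which gives 16 groups of 3 libraries. Control, tunicamycin and cyclosporin A slices were each taken at 6 h and at 24 h. A separate set of slices was labelled normoxia, named as an ischemia model, or normoxia-hyperoxia, named as a reperfusion model, and the titles give 24 h for both. Tunicamycin blocks N-linked glycosylation in the endoplasmic reticulum, and cyclosporin A is a calcineurin inhibitor with known kidney toxicity. Drug doses, the oxygen supplied to control slices and the time at which hyperoxia began are not given in the sources used here.

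The EGF receptor is a cell surface tyrosine kinase that binds its ligands, pairs with itself or with the related receptors Erbb2, Erbb3 and Erbb4, and signals through RAS and the ERK kinases. Its ligands are made as membrane-anchored precursors, which metalloproteases such as Adam17 cut to release the growth factor. In the kidney the receptor is carried by tubular epithelium, Egf itself is made by the loop of Henle and the distal tubule, and Hbegf and Areg are known as genes induced by tubular injury.

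On the GRCm38 build, Egfr (ENSMUSG00000020122) lies on the plus strand at chr11:16752203-16918158 and Tgfa (ENSMUSG00000029999) on the plus strand at chr6:86195223-86275719. An antisense gene, Egfros, overlaps Egfr with 0 exon bases shared, and Gm43917 shares 118 exon bases with Tgfa on the opposite strand. The 4 genes Epgn (ENSMUSG00000035020, chr5:91027464-91035215), Ereg (ENSMUSG00000029377, chr5:91074622-91093646), Areg (ENSMUSG00000029378, chr5:91139599-91148432) and Btc (ENSMUSG00000082361, chr5:91357261-91402994) lie next to each other within 375.531 kb of chromosome 5, with 0 other protein-coding genes between them; Btc is on the minus strand and the other three on the plus strand. The promoters of Areg and Btc are shown because these neighbours moved in opposite directions between normoxia and 24 h control slices. Each sequence is the 250 bases before the annotated start in RefSeq (GRCm38.p6), read on the gene's strand, with motif matches in capitals.
Areg, chr5:91139349-91139598, plus strand: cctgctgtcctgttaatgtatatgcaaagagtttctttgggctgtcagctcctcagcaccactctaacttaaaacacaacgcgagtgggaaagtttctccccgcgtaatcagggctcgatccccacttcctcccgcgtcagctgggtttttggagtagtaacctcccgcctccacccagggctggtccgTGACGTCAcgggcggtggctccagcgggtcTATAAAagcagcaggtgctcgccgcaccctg
Btc, chr5:91402995-91403244, minus strand: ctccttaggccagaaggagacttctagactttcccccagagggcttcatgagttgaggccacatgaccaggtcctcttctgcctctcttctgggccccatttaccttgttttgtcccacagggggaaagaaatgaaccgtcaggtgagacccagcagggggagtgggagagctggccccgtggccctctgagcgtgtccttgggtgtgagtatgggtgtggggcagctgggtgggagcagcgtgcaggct
The Areg window held the cyclic AMP response element TGACGTCA, which begins 61 bases before the start, and a TATA box TATAAA, which begins 31 bases before it. The Btc window held none of the 4 motifs searched on both strands, which besides these were the AP-1 site TGANTCA and the hypoxia response element core ACGTG. Among all 32851 promoters of the table, 1.55% held TGACGTCA, 12.4% TATAAA, 6.75% TGANTCA and 16.6% ACGTG. The same windows of Tgfa and Egfr held no match. That of Epgn held TATAAA 86 bases before the RefSeq start. This window, chr5:91027267-91027516, reaches past the Epgn start given above, so the motif lies nearer to that start. A match is a string of letters and was not tested as a binding site.

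Library totals ranged from 5619309 to 25137581 counts, the lowest being DBA/2J normoxia-hyperoxia replicate 2. Levels below are in CPM, the counts scaled to a common library total. Log2 fold changes are from edgeR's quasi-likelihood test with TMM factors, given with the standard error (SE), and adjusted p-values are Benjamini-Hochberg values over all genes tested in that comparison; a gene passed the test at an adjusted p under 0.05. "Over both strains" means the mean of the 2 strains' log2 fold changes, with 3 libraries per group and 12 per comparison. Nothing in the labels says that replicates came from separate mice, so p-values measure only the spread between these libraries, which may be technical. Scaling by library totals alone moved the median log2 change of all genes from -0.02 to 0.19 for time in culture, from 0.05 to -0.22 for normoxia against 24 h control, from 0.00 to -0.17 for normoxia-hyperoxia against 24 h control and from 0.02 to 0.11 between the oxygen conditions. It moved the share of higher genes among all that passed from 48.1% to 60.4%, from 51.6% to 41.5%, from 50% to 39% and from 50.3% to 55.2%. In bulk tissue, fewer cells of a type and less RNA per cell cannot be told apart.

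**Figure D1:**
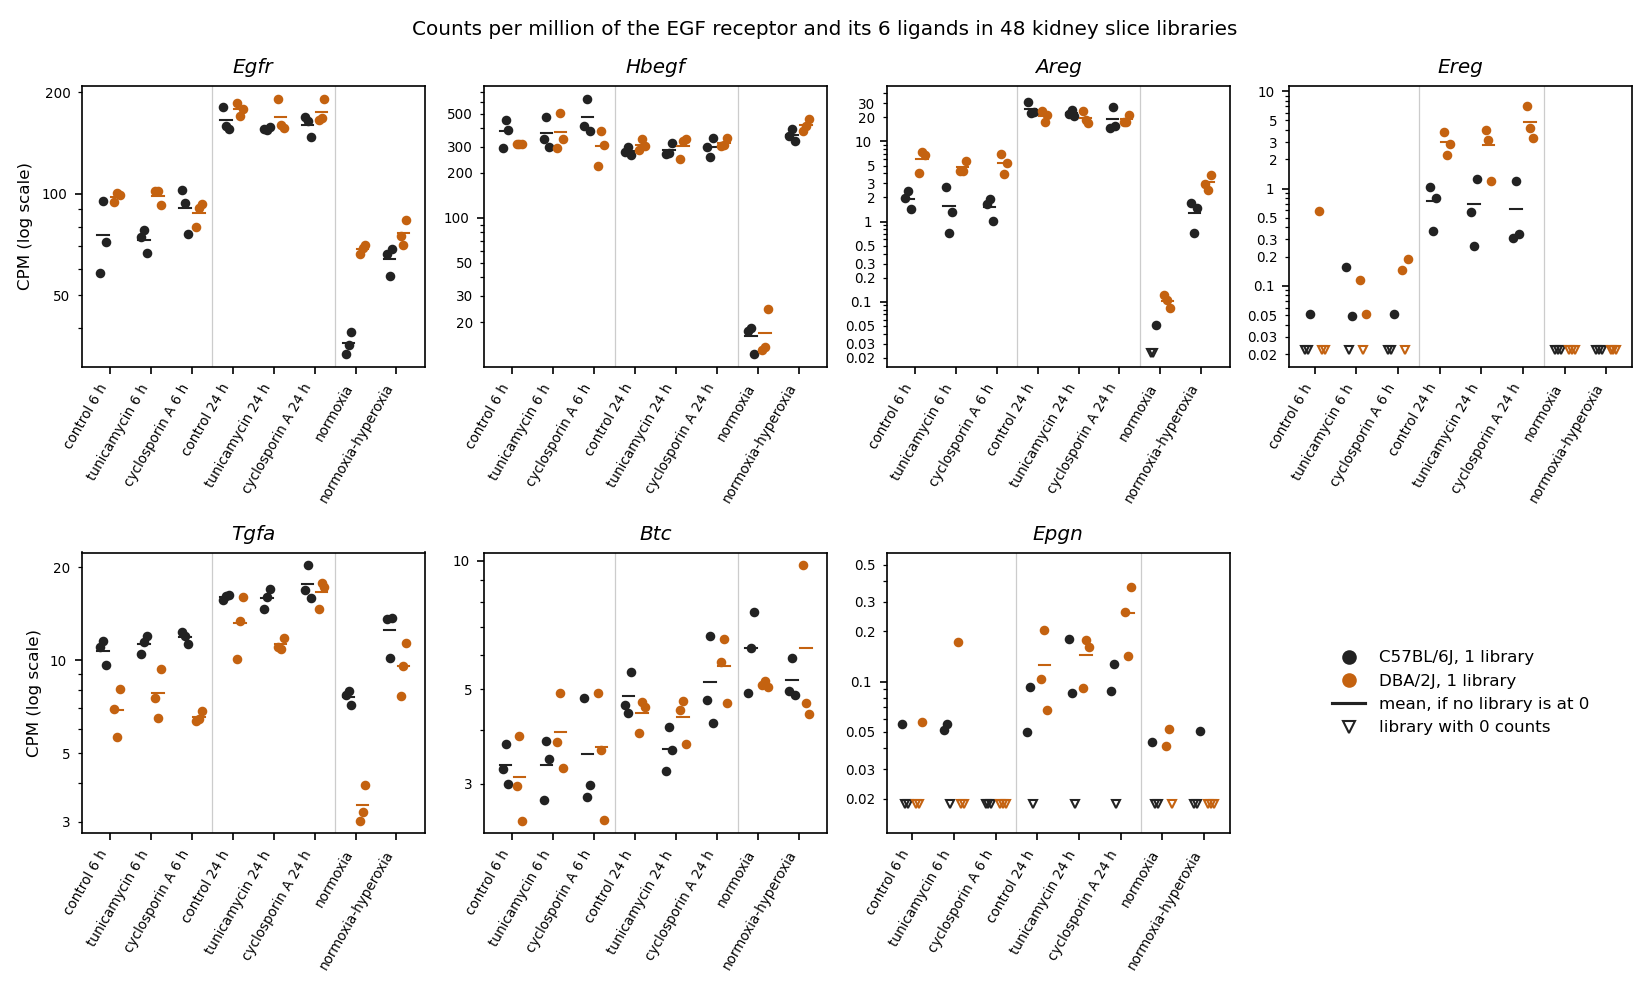
CPM of each of the 7 genes (log axis) in the 16 groups, 1 point per library, with a tick at the group mean where no library is at 0. Hbegf lay between 12.2 and 24.4 CPM in the 6 normoxia libraries, below all other groups, and Areg ranged from 0 to 30.8 CPM.

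The 7 genes covered a wide range of levels. Epgn, which encodes epigen, reached at most 7 counts in any library (0.369 CPM) and was tested in no comparison. Ereg, which encodes epiregulin, had 0 counts in all 12 libraries of the oxygen conditions. Per kilobase of merged exons (RPKM), the control slices of C57BL/6J at 6 h had a mean of 78.6 for Hbegf, 6.64 for Egfr, 1.66 for Tgfa, 1.6 for Areg and 0.735 for Btc. Ordered by mean CPM over the 16 groups, Egfr ran from 36 CPM in C57BL/6J normoxia to 178 CPM in DBA/2J 24 h control. Of the 15 steps between neighbouring groups in that order, the libraries did not overlap at 2 for Egfr, 5 for Areg, 1 each for Hbegf, Ereg and Tgfa, and 0 for Btc. These steps were not counted for all genes, and the order comes from the same values, so the counts are a description only. The step for Hbegf separated the 2 normoxia groups from the other 14 groups, at 17 against 279 CPM. For Egfr, the steps set C57BL/6J normoxia below all other groups and the 24 h slices of the control and drug arms above all 6 h slices.

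With time in culture, the receptor and 3 ligands were higher at 24 h than at 6 h in control slices, and Hbegf was lower. Egfr was 1.72-fold higher and Areg, which encodes amphiregulin, 5.80-fold higher over both strains. Of the 6 members tested, 4 rose and 1 fell, beside 72% of 16962 genes that passed the test in this comparison. Egfr was at 58.3, 95.2 and 72.2 CPM in C57BL/6J at 6 h and at 182, 159 and 155 CPM at 24 h. In DBA/2J it was at 94.6, 100.6 and 99.1 CPM at 6 h and at 187, 171 and 178 CPM at 24 h. Every 24 h control library lay above every 6 h control library. Egfr had a log2 fold change of 0.79 ± 0.10 (SE, adjusted p = 6.59e-06).

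In controls, Areg was at 1.96, 2.42 and 1.45 CPM in C57BL/6J at 6 h, against 30.8, 22.5 and 23 CPM at 24 h. In DBA/2J it was at 4.02, 7.35 and 6.86 CPM at 6 h and at 23.7, 17.4 and 21.2 CPM at 24 h. The strains were apart at 6 h and overlapped at 24 h. The log2 fold change was 2.54 ± 0.17 (SE, adjusted p = 1.25e-08) over both strains, with 3.44 for C57BL/6J and 1.63 for DBA/2J. The difference between these responses, DBA/2J minus C57BL/6J, was -1.82 ± 0.34 (SE, adjusted p = 0.0314), in a contrast that 0.69% of genes passed. It did not pass without C57BL/6J 6 h control replicate 3 (-1.69), DBA/2J 6 h control replicate 2 (-1.65) or 3 (-1.72), C57BL/6J 24 h control replicate 1 (-1.65) or 3 (-1.89), or DBA/2J 24 h control replicate 3 (-1.83), with adjusted p from 0.0546 to 0.101. With the replicate number as a block it was -1.79 (adjusted p = 0.105).

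Ereg was near its detection limit at 6 h. C57BL/6J had 1 count in 3 libraries at 6 h and 39 counts at 24 h (1.05, 0.371 and 0.807 CPM), a ratio of 39.7 with a 95% counting interval of 6.71 to 1606. DBA/2J had 13 counts at 6 h, all of them in replicate 1 (0.594 CPM), and 160 counts at 24 h (3.85, 2.23 and 2.84 CPM). Within each strain, all 24 h control libraries lay above the 6 h libraries. The log2 fold change over both strains was 4.13 ± 0.73 (SE, adjusted p = 0.00017), and 6.65 without that DBA/2J 6 h library; with so few counts at 6 h this fitted value depends on edgeR's prior count. Its annotated exons share 141 bases with the antisense gene Gm19610, and the strand setting of the counting is not given in the sources used here.

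Tgfa, which encodes transforming growth factor alpha, was at 11.1, 11.6 and 9.62 CPM in C57BL/6J at 6 h and at 15.7, 16.1 and 16.3 CPM at 24 h. In DBA/2J it was at 6.94, 5.64 and 8.06 CPM at 6 h and at 10.1, 13.4 and 16 CPM at 24 h. The time points did not overlap in either strain. Over both strains Tgfa rose by 0.54 ± 0.12 on the log2 scale (SE, adjusted p = 0.0009); it passed in DBA/2J (0.78, adjusted p = 0.00127) and was 0.30 (adjusted p = 0.127) in C57BL/6J. Hbegf (ENSMUSG00000024486, chr18:36504927-36515805, minus strand), which encodes heparin-binding EGF-like growth factor, was at 293, 456 and 391 CPM in C57BL/6J at 6 h and at 274, 299 and 264 CPM at 24 h. In DBA/2J it was at 310, 314 and 315 CPM at 6 h and at 285, 337 and 305 CPM at 24 h. The time points overlapped in both strains. Hbegf fell by 0.45 on the log2 scale over both strains (SE 0.09, adjusted p = 0.000641), by 0.72 in C57BL/6J (adjusted p = 0.000321) against a change of -0.17 (adjusted p = 0.271) in DBA/2J; within each strain 61.5% and 62% of genes passed. The difference between the strains' responses was 0.54 (adjusted p = 0.231), and 0.65 (adjusted p = 0.0366) without C57BL/6J 6 h control replicate 1. Btc, which encodes betacellulin, had a mean level at 24 h of 4.82 CPM for C57BL/6J and 4.39 CPM for DBA/2J, and its log2 fold change was 0.30 (SE 0.14, adjusted p = 0.072). It passed under library totals (0.51, adjusted p = 0.00487) and without DBA/2J 6 h control replicate 2 (0.40, adjusted p = 0.0235).

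Neither drug moved a member past the threshold at either time. Over both strains, the log2 fold changes with tunicamycin lay between -0.32 and 0.18 for the 5 members tested at 6 h and between -0.21 and 0.01 for the 6 tested at 24 h. With cyclosporin A they lay between -0.23 and 0.18 for 5 members at 6 h and between -0.31 and 0.22 for 6 at 24 h. The 95% intervals of these differences reached from -0.99 to 0.96 at the widest, and a change inside a member's own interval was not detectable with these libraries. By edgeR's test over both strains, 0 members passed and 0 had an unadjusted p under 0.05 in each of the 4 comparisons, and DESeq2 called 0 as well. Within C57BL/6J, Btc with tunicamycin at 24 h was at -0.41 (unadjusted p = 0.0361, edgeR adjusted p = 0.792). Among all genes, 0% passed for tunicamycin at 6 h, 1.38% at 24 h, and 0% for cyclosporin A at 6 h and at 24 h; the genes at an unadjusted p under 0.05 were 281, 2174, 734 and 1107, and DESeq2 called 0, 527, 51 and 22. Egfr in C57BL/6J slices at 24 h was at 156, 155 and 158 CPM with tunicamycin and at 169, 164.6 and 148 CPM with cyclosporin A, which overlapped the controls. Hbegf in the same slices was at 268, 273 and 320 CPM with tunicamycin and at 299, 257 and 343 CPM with cyclosporin A, which also overlapped them. The drug comparisons at a given time share their control libraries.

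The normoxia slices stood apart from the controls in most members. Against 24 h controls, Egfr, Hbegf, Areg, Ereg and Tgfa were lower in normoxia and Btc was higher. All 6 members tested passed, 5 lower and 1 higher, beside 82% of 17375 genes. The normoxia and normoxia-hyperoxia slices carry other titles than the control and drug slices, so in every comparison with a control the experiment and the oxygen condition cannot be told apart. Hbegf was at 17.5, 18.4 and 12.2 CPM in C57BL/6J normoxia and at 13, 13.7 and 24.4 CPM in DBA/2J normoxia. All 6 libraries lay below every other library of the series. Its log2 fold change against 24 h controls was -3.88 ± 0.16 (SE, adjusted p = 6.06e-10), a 14.7-fold lower level, with -3.90 in C57BL/6J and -3.85 in DBA/2J.

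Areg was at or under 3 counts in each normoxia library. C57BL/6J had 1 count over its 3 libraries (0, 0 and 0.051 CPM) and DBA/2J had 7 counts (0.123, 0.104 and 0.0841 CPM). The 24 h control level was 1610 times higher in C57BL/6J (95% counting interval 289 to 63651) and 199.5 times higher in DBA/2J (96.5 to 497). These intervals cover counting error only. With 0 counts in normoxia, Ereg was lower by at least 5.14-fold in C57BL/6J slices and by at least 22-fold in those of DBA/2J, taking 3 counts per library as the floor.

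Egfr was at 33.5, 35.5 and 38.9 CPM in C57BL/6J normoxia and at 66.2, 69 and 70.4 CPM in DBA/2J normoxia. The strains did not overlap, and both lay below their 24 h controls. The log2 fold change was -1.52 ± 0.06 (SE, adjusted p = 8.88e-13) over both strains, with -1.99 for C57BL/6J and -1.05 for DBA/2J. The difference between the responses, 0.93 ± 0.11 (SE), passed the test (adjusted p = 0.000137), as did 17% of genes, and lay between 0.79 and 0.99 with each library left out in turn; tubule marker sums and the mitochondrial share also differed between the strains in normoxia, as given with the markers. Tgfa was at 7.7, 7.97 and 7.14 CPM in C57BL/6J normoxia and at 3.03, 3.23 and 3.95 CPM in DBA/2J normoxia. Again the strains were apart and below the controls, with DBA/2J the lower one. Tgfa fell by 1.24 on the log2 scale (SE 0.11, adjusted p = 3.82e-08), by 0.86 in C57BL/6J and by 1.61 in DBA/2J. The difference of -0.76 ± 0.22 (SE, adjusted p = 0.031) did not pass without C57BL/6J 24 h control replicate 1 (-0.73) or 2 (-0.76), C57BL/6J normoxia replicate 1 (-0.74) or 2 (-0.73), or DBA/2J normoxia replicate 1 (-0.69) or 2 (-0.71), with adjusted p from 0.0524 to 0.0763. Btc was at 4.9, 6.24 and 7.6 CPM in C57BL/6J normoxia and at 5.12, 5.21 and 5.05 CPM in DBA/2J normoxia. It overlapped the 24 h controls in C57BL/6J and lay above them in DBA/2J. Its log2 fold change of 0.58 ± 0.12 (SE, adjusted p = 0.000467) was the only rise among the members in this comparison.

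**Figure D2:**
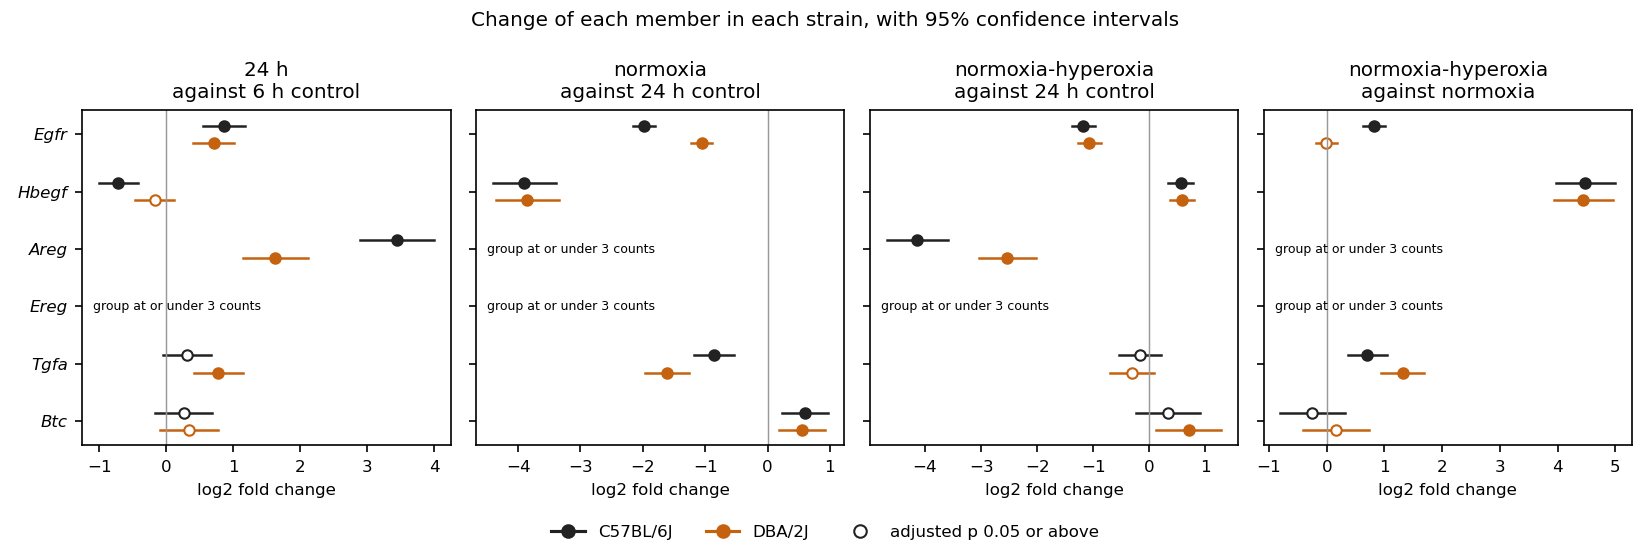
Log2 fold changes of the members in each strain with 95% intervals, for time in culture and 3 oxygen comparisons; filled points had an adjusted p under 0.05, and genes with a group at or under 3 counts are not drawn. Hbegf lies at -3.90 and -3.85 in normoxia against 24 h control and at 4.48 and 4.44 in normoxia-hyperoxia against normoxia.

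Against 6 h controls, the normoxia slices had lower Egfr (-0.78, adjusted p = 9.75e-06), Hbegf (-4.37) and Tgfa (-0.74), and higher Btc (0.83, adjusted p = 0.000109). The 6 h level of Areg was 121 times that of normoxia in C57BL/6J (95% counting interval 21.2 to 4818) and 57.4 times in DBA/2J (27.6 to 144). All 5 members tested passed, 4 lower and 1 higher, beside 65.8% of 16819 genes. The normoxia libraries are those already set against the 24 h controls. Here time in culture, 24 h by title against 6 h, also differs, and it cannot be told apart from the experiment and the oxygen condition. For Egfr, the difference between the strains' responses was 0.74 (adjusted p = 0.0572), in a contrast that 3.66% of genes passed; it passed without C57BL/6J 6 h control replicate 1 (0.90) or 2 (0.48), without the filter (0.66), by DESeq2 (0.70), in the single fit (0.71) and with the replicate block (0.71).

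In normoxia-hyperoxia slices, Hbegf was 22-fold higher than in normoxia, and Areg, Tgfa and Egfr were higher too. Of 5 members tested, 4 passed and all 4 were higher, beside 73.5% of 17228 genes. Hbegf was at 353, 396 and 329 CPM in C57BL/6J and at 379, 412 and 463 CPM in DBA/2J. Every library stood above every normoxia library, with a log2 fold change of 4.46 ± 0.17 (SE, adjusted p = 1.48e-10), 4.48 in C57BL/6J and 4.44 in DBA/2J. Areg was at 1.7, 0.716 and 1.46 CPM in C57BL/6J and at 2.93, 2.49 and 3.86 CPM in DBA/2J. These levels exceeded normoxia 77.6 times in C57BL/6J (95% counting interval 13.5 to 3105) and 31.8 times in DBA/2J (15 to 80.6), and all lay below the 24 h controls. Tgfa was at 13.6, 10.2 and 13.7 CPM in C57BL/6J and at 7.64, 9.61 and 11.4 CPM in DBA/2J. It was above normoxia in both strains, with a log2 fold change of 1.01 ± 0.12 (SE, adjusted p = 1.45e-06).

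The change of the receptor differed between the 2 strains in this comparison; the marker sums of each strain are given with the markers. Egfr was at 66.3, 57 and 68.5 CPM in C57BL/6J normoxia-hyperoxia, all above the normoxia libraries of that strain, and rose by 0.82 on the log2 scale (adjusted p = 9.57e-07). In DBA/2J it was at 75.2, 70.5 and 83.7 CPM, just above the normoxia libraries by CPM, and its log2 change with TMM factors was -0.01 (adjusted p = 0.946); within each strain 61.8% and 68.5% of genes passed. The difference between the responses was -0.83 ± 0.12 (SE, adjusted p = 0.000612), in a contrast that 18.2% of genes passed, and lay between -0.90 and -0.74 with each library left out in turn. Over both strains the change was 0.41 ± 0.06 (SE, adjusted p = 2.32e-05). For Tgfa the difference between the strains' responses was 0.61 (adjusted p = 0.0867), and it passed without DBA/2J normoxia-hyperoxia replicate 1 (0.79, adjusted p = 0.0304) and under library totals (0.77) or a single fit of the 48 libraries (0.70). Btc was at 4.95, 5.93 and 4.84 CPM in C57BL/6J and at 9.76, 4.63 and 4.36 CPM in DBA/2J. The first DBA/2J library stood apart from the others, and the log2 change of Btc from normoxia was -0.04 (SE 0.19, adjusted p = 0.849), or -0.34 (adjusted p = 0.0411) without that library.

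Against 24 h controls, normoxia-hyperoxia slices had more Hbegf and Btc and less Egfr, Areg and Ereg. Of 6 members tested, 5 passed, 2 higher and 3 lower, beside 68.2% of 17256 genes. The log2 fold change of Hbegf was 0.57 ± 0.07 (SE, adjusted p = 5.69e-06), that of Egfr -1.13 ± 0.07 (SE, adjusted p = 1.88e-09) and that of Areg -3.34 ± 0.17 (SE, adjusted p = 6.47e-10). For Hbegf and Egfr the 2 strains had similar values, at 0.56 and 0.58 and at -1.18 and -1.07. Ereg was lower by at least 5.17-fold in C57BL/6J slices and by at least 10.4-fold in those of DBA/2J. Areg fell by 4.14 in C57BL/6J and by 2.53 in DBA/2J, a difference of 1.61 ± 0.35 (SE, adjusted p = 0.04), in a contrast that 1.43% of genes passed. It did not pass without any of the C57BL/6J 24 h control replicates 1 (1.47), 2 (1.72) and 3 (1.72), DBA/2J 24 h control replicate 3 (1.65), C57BL/6J normoxia-hyperoxia replicates 2 (1.29) and 3 (1.71) and DBA/2J normoxia-hyperoxia replicates 1 (1.68), 2 (1.70) and 3 (1.40), with adjusted p from 0.0527 to 0.111. Btc was 0.51 ± 0.19 (SE, adjusted p = 0.0262) higher, with overlapping libraries in both strains. It did not pass without C57BL/6J 24 h control replicate 1 (0.49) or 2 (0.47), DBA/2J 24 h control replicate 1 (0.47), C57BL/6J normoxia-hyperoxia replicate 2 (0.46) or DBA/2J normoxia-hyperoxia replicate 1 (0.24), or under library totals (0.34). Tgfa had a log2 change of -0.24 (SE 0.13, adjusted p = 0.105), and passed without DBA/2J 24 h control replicate 1 (-0.33) or DBA/2J normoxia-hyperoxia replicate 3 (-0.33), under library totals (-0.41), in the single fit of 48 libraries (-0.23) and with the replicate block (-0.25). The 2 oxygen conditions were compared with the same controls.

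The strains differed in Areg, Tgfa and Ereg in several conditions and in Egfr in normoxia. Across the 8 conditions, DBA/2J was lower in Tgfa in 6, higher in Areg in 4, higher in Ereg in 3, lower in Hbegf in 2 and higher in Egfr in 1 by the test, and Btc passed in 0 (0 at an unadjusted p under 0.05 by edgeR, and 0 by DESeq2), with overlapping libraries in all 8. Beside these counts, 22.2% of genes differed between strains in 24 h controls, 26.2% in 6 h controls, 24% and 18.6% in tunicamycin slices at 6 h and 24 h, 32.6% and 20.7% in cyclosporin A slices, 46.8% in normoxia and 25.7% in normoxia-hyperoxia. The strain tests within the drug slices were chosen after seeing the data. In normoxia, Egfr was 2.00-fold higher in DBA/2J (log2 1.00 ± 0.09 SE, adjusted p = 6.42e-07), and in normoxia-hyperoxia its log2 difference was 0.17 (adjusted p = 0.168).

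The 6 h slices showed a strain difference of Areg in all 3 arms. Marker sums by strain at 6 h and in normoxia-hyperoxia are given with the markers. DBA/2J was at 4.27, 4.29 and 5.66 CPM with tunicamycin and C57BL/6J at 2.69, 0.724 and 1.32 CPM, and with cyclosporin A DBA/2J was at 6.94, 3.92 and 5.31 CPM and C57BL/6J at 1.65, 1.93 and 1.03 CPM. No DBA/2J library of these arms overlapped a C57BL/6J library. The log2 differences were 1.49 in controls (adjusted p = 0.00129), 1.46 with tunicamycin (adjusted p = 0.0154) and 1.66 with cyclosporin A (adjusted p = 0.00296); the tunicamycin value did not pass without C57BL/6J replicate 3 (1.35) or DBA/2J replicate 3 (1.33) of that arm. At 24 h the differences were -0.32, -0.24 and -0.09, with adjusted p of 0.308, 0.334 and 0.812. In normoxia-hyperoxia it was 1.22 (adjusted p = 0.0215), and it did not pass without C57BL/6J replicate 2 (0.92) or DBA/2J replicate 3 (1.02). Both strains were at or under the floor in normoxia.

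Tgfa was lower in DBA/2J in the same 6 h slices, in all 3 arms. The log2 difference was -0.79 in controls (adjusted p = 0.00404), -0.64 with tunicamycin (adjusted p = 0.0121) and -1.01 with cyclosporin A (adjusted p = 0.000349). It was -1.09 in normoxia (adjusted p = 0.000138), the largest of its 8 values. At 24 h it was -0.32 in controls (adjusted p = 0.194), -0.18 with cyclosporin A (adjusted p = 0.431) and -0.55 with tunicamycin (adjusted p = 0.017), the last not passing without C57BL/6J tunicamycin replicate 3 (-0.50) or DBA/2J tunicamycin replicate 1 (-0.53). In normoxia-hyperoxia it was -0.48 (adjusted p = 0.0435), and did not pass without C57BL/6J normoxia replicates 1, 2 or 3, DBA/2J normoxia replicate 2, C57BL/6J normoxia-hyperoxia replicates 1 or 3, or DBA/2J normoxia-hyperoxia replicates 1 or 2 (-0.48 to -0.32, adjusted p from 0.0526 to 0.207), or under library totals (-0.38, adjusted p = 0.112). Its adjusted p was 0.0657 in the fit with the 24 h controls.

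Ereg was higher in DBA/2J at 24 h in all 3 arms by the test, although the tunicamycin libraries of the strains overlapped. Several marker sums were also apart between the strains at 24 h, and their part in the result was not tested. In controls, DBA/2J was at 186 to 222 against 121 to 152 CPM in immune markers, at 751 to 1144 against 1425 to 1687 CPM in podocyte markers, at 581 to 963 against 1026 to 1338 CPM in endothelial markers and at 845 to 1856 against 341 to 542 CPM in proximal tubule markers. The immune, podocyte and endothelial sums did not overlap in the drug arms either. The cyclosporin A slices had 7.06, 4.14 and 3.32 CPM in DBA/2J and 0.309, 1.21 and 0.339 CPM in C57BL/6J, without overlap. The log2 difference there was 2.98 (adjusted p = 0.00117). It was 1.99 in controls (adjusted p = 0.0384) and 2.05 with tunicamycin (adjusted p = 0.0195). The control value did not pass without C57BL/6J 6 h control replicate 3 (1.95), C57BL/6J 24 h control replicates 1 (2.38), 2 (1.63) or 3 (2.03), or DBA/2J 24 h control replicates 1 (1.74) or 3 (2.02), nor by DESeq2 (1.96, adjusted p = 0.249). In the 4 other fits that hold the 24 h controls and tested it, it passed, with adjusted p from 0.00479 to 0.0216. The tunicamycin value did not pass without C57BL/6J replicates 1 (1.97) or 2 (1.61) or DBA/2J replicate 1 (1.72). Hbegf was lower in DBA/2J by 0.43 on the log2 scale in 6 h controls (adjusted p = 0.0297), with overlapping libraries. That call was lost without C57BL/6J 6 h control replicates 2 (-0.24) or 3 (-0.40) or DBA/2J 6 h control replicates 1 (-0.42), 2 (-0.44) or 3 (-0.44), under library totals (-0.28) and in the single fit of 48 libraries (-0.45). For the same 6 h controls the adjusted p was 0.184 in the fit with tunicamycin, 0.217 in that with cyclosporin A and 0.178 in that with normoxia. With cyclosporin A at 6 h the Hbegf difference was -0.80 (adjusted p = 0.0221), and it did not pass without C57BL/6J replicate 2 (-0.53) or DBA/2J replicates 1 (-0.62) or 3 (-0.82) of that arm, or without the filter on low counts (-0.81, adjusted p = 0.0844).

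**Figure D3:**
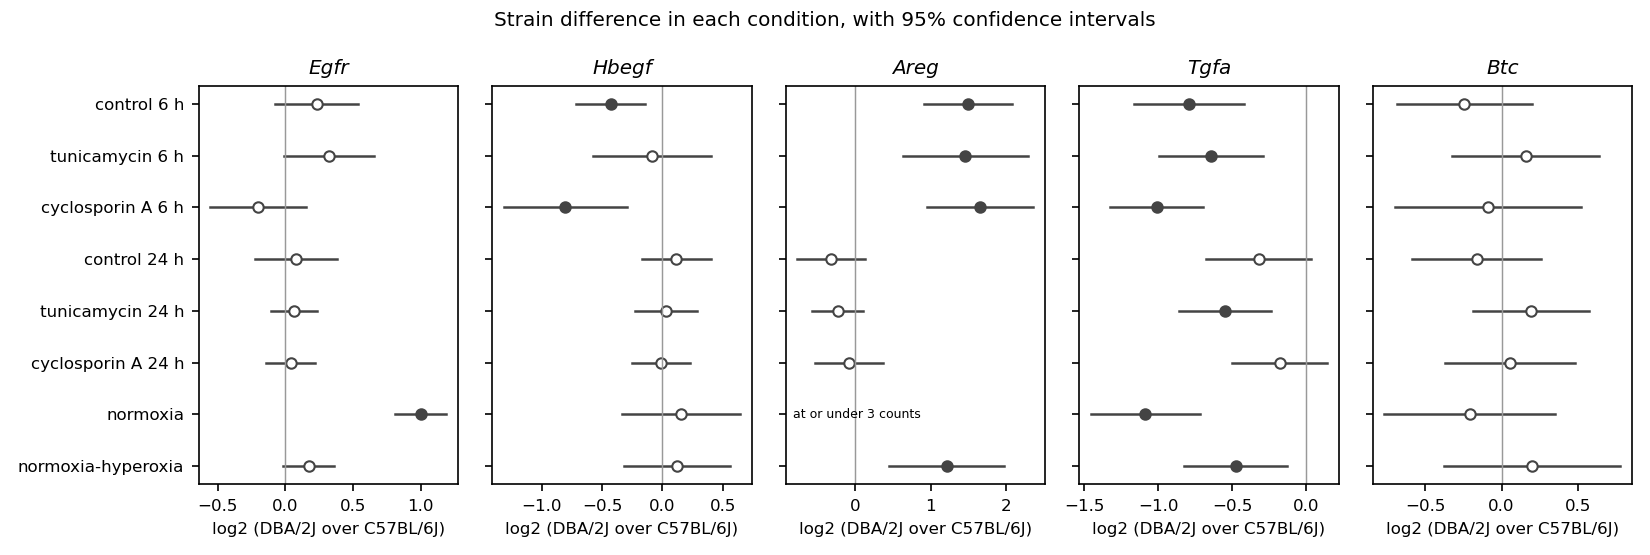
Log2 difference DBA/2J minus C57BL/6J with 95% intervals for Egfr, Hbegf, Areg, Tgfa and Btc in the 8 conditions; filled points had an adjusted p under 0.05, and conditions at or under 3 counts are marked. Areg lay at 1.49, 1.46 and 1.66 in the 6 h arms and at -0.32, -0.24 and -0.09 in the 24 h arms, and Egfr stood at 1.00 in normoxia.

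The makeup of the ligand pool followed these changes. As a share of the summed RPKM of the 6 ligands, Hbegf made up 95% in C57BL/6J and 90.5% in DBA/2J at 6 h, and 70.1% ± 3.75 and 75.3% ± 3.77 (SD, n = 3) at 24 h. Areg took up 1.97% and 6.95% at 6 h and 25.3% and 20.2% at 24 h. The summed RPKM was 82.6 ± 17.1 and 71.6 ± 1.92 (SD, n = 3) at 6 h and 82.4 ± 4.35 and 84.9 ± 2.88 at 24 h, so the sum differed by less than the SD in C57BL/6J and by more than it in DBA/2J. The shares are given as a description. In normoxia the sum was 5.9 ± 0.532 in C57BL/6J and 5.29 ± 1.35 in DBA/2J. There Hbegf made up 55.9% and 65.5%, Btc 23.7% and 22.3%, and Tgfa 19.9% and 10.1%. In normoxia-hyperoxia the sum was 78.5 ± 6.55 and 91.9 ± 8.87, and Hbegf made up 94.6% and 94.1%. With lengths of the longest transcript in place of merged exons, the 24 h share of Hbegf was 78.9% and 82.9% and that of Areg 17.1% and 13.4%.

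**Figure D4:**
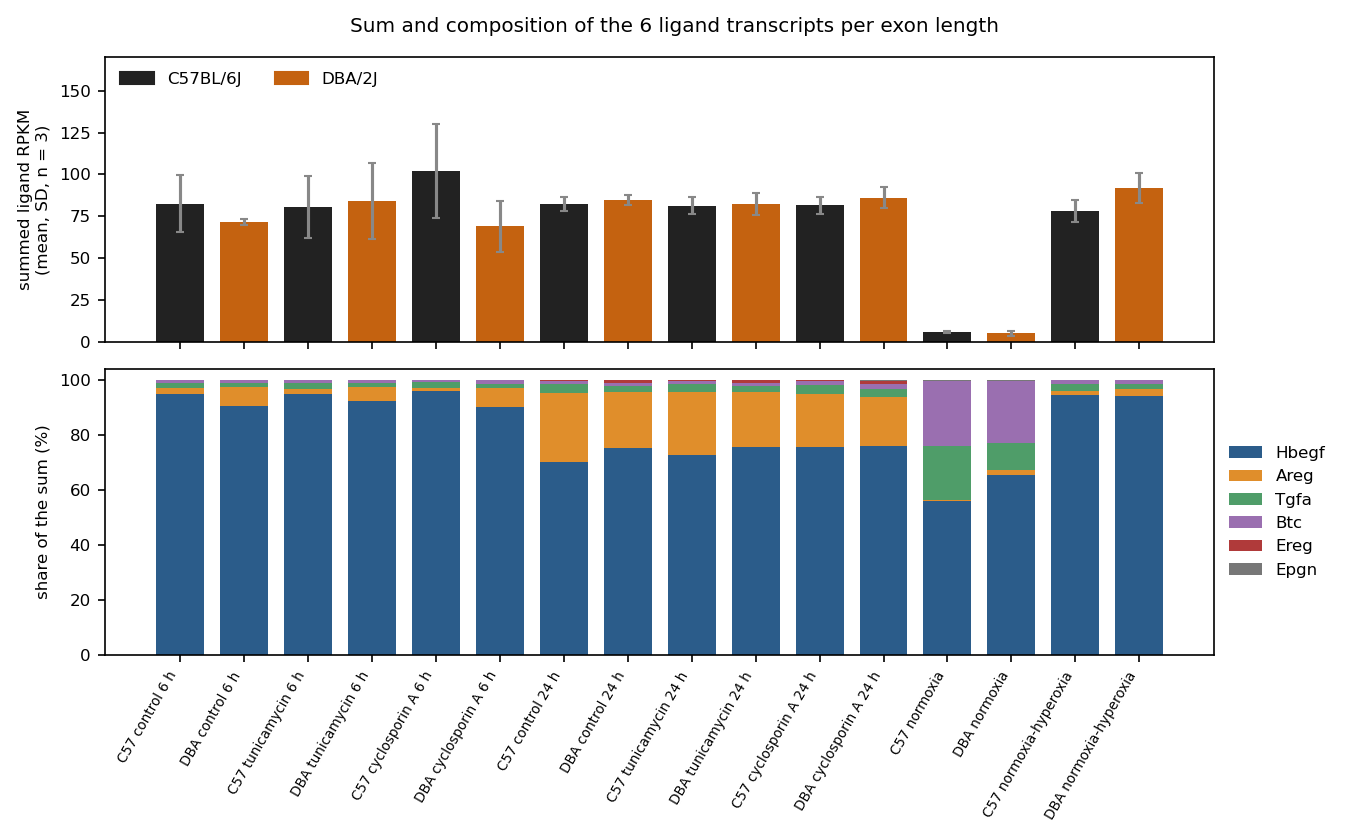
Summed RPKM of the 6 ligands (top, mean and SD of 3 libraries) and the share of each ligand in it (bottom, percent) in the 16 groups. Hbegf fills 95% and 90.5% of the 6 h control bars and 55.9% and 65.5% of the normoxia bars, where Btc holds 23.7% and 22.3%.

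Egf, the ligand that gives the receptor its name, is set beside the members as the classical ligand of this tissue. Its mean RPKM was 455 in C57BL/6J and 465 in DBA/2J at 6 h, 114 and 155 at 24 h, 395 and 241 in normoxia, and 456 and 692 in normoxia-hyperoxia. The RPKM of Egf was 5.97 and 7.18 times that of Hbegf at 6 h, 1.96 and 2.40 times at 24 h, 122 and 74.3 times in normoxia, and 6.05 and 8.03 times in normoxia-hyperoxia. Hbegf in turn was 11.9 and 7.49 times Egfr at 6 h, 3.97 and 4.07 times at 24 h, 1.06 and 0.58 times in normoxia, and 13.3 and 12.8 times in normoxia-hyperoxia. The ratios rest on merged exon lengths; the longest transcript is 2890 bases for Hbegf and 10208 for Egfr, against merged lengths of 4834 and 11326, and would give higher ratios of Hbegf to Egfr in every condition.

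Of the 8 other genes of the family (Egf, the neuregulins Nrg1 to Nrg4, and the receptors Erbb2, Erbb3 and Erbb4), 5 of 6 tested fell with time in culture and 0 rose, beside 72% of all genes that passed. Egf fell by 2.00 on the log2 scale (adjusted p = 4.54e-06), Erbb4 by 2.49, Nrg4 by 1.85 and Erbb3 by 0.91, while Egfr rose. Erbb2 fell by 0.24 (adjusted p = 0.00955), but its change was -0.03 (adjusted p = 0.777) under library totals. In normoxia against 24 h controls, where 82% of genes passed, 5 of 6 rose, namely Egf (1.48, adjusted p = 8.94e-05), Erbb2 (0.98), Erbb3 (1.96), Erbb4 (1.90) and Nrg4 (2.86), and Nrg1, which encodes neuregulin 1, fell by 3.50 (adjusted p = 3.18e-09). Against 6 h controls, where 65.8% of genes passed, 3 of 6 were higher in normoxia and 3 lower: Erbb2 (0.70), Erbb3 (1.01) and Nrg4 (0.96) were higher, and Egf (-0.56), Erbb4 (-0.63) and Nrg1 (-3.56) lower. The calls of Egf and Erbb4 there were lost in the single fit of 48 libraries (-0.54 and -0.61), that of Erbb4 without C57BL/6J 6 h control replicate 2 (-0.58) and that of Nrg4 without C57BL/6J normoxia replicate 1 (0.80). In normoxia-hyperoxia against normoxia, where 73.5% of genes passed, Egf rose by 0.78 and Nrg1 by 2.94, and Erbb2, Erbb3 and Nrg4 fell, Nrg4 in DBA/2J by a ratio of 13.1 (95% counting interval 4.91 to 49.1). Erbb4 was at 0.62 (adjusted p = 0.0533), and passed under RLE factors, library totals, no filter, DESeq2 and the replicate block. Against 24 h controls, where 68.2% of genes passed, normoxia-hyperoxia slices had higher Egf (2.25), Erbb2 (0.52), Erbb3 (0.67) and Erbb4 (2.51) and lower Nrg1 (-0.58).

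Among the genes that release the ligands (10 metalloproteases, rhomboid proteins and an inhibitor), 3 rose and 6 fell in normoxia against 24 h controls, with a median log2 change of -0.27 beside 0.05 for all genes. Across settings this median lay between -0.54 and -0.24. The counts of this and the next 3 lists stand beside 82% of all genes that passed. Rhbdf2, which escorts Adam17, was at -2.10 and Rhbdl2 at -1.92. Of 16 feedback inhibitors, 3 rose and 13 fell (median -1.16), with the ERK phosphatase Dusp5 at -5.75 and Spry2 at -2.47. Of 21 signal transducers, 6 rose and 14 fell (median -0.38), with Map2k1, an ERK pathway kinase, at -2.02 and the adaptor Shc1 at -1.42. Across settings the transducer median lay between -0.66 and -0.35. Of 14 genes known as ERK-responsive, 0 rose and 12 fell (median -3.52). They included the urokinase receptor gene Plaur (-6.34) and the transcription factor Myc (-5.07), while Fosl1 in C57BL/6J had 3 counts against 16818, a ratio of 6499 with a 95% counting interval of 2224 to 31520.

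In normoxia-hyperoxia against normoxia the same 4 lists had medians of 0.03, 1.07, 0.34 and 4.24 beside 0.02 for all genes, of which 73.5% passed. The ERK-responsive list counted 12 higher and 2 lower of 14, with the immediate early genes Fos at 7.44 and Egr1 at 5.76. The feedback list counted 12 higher and 4 lower of 16, with Dusp5 at 5.31 and Errfi1, a direct inhibitor of the receptor, at 2.34. The transducers counted 11 higher and 3 lower of 21, and the release genes 4 higher and 3 lower of 10, with Rhbdf2 at 2.01 and the metalloprotease inhibitor Timp3 at -1.03. Over 24 h against 6 h controls the medians were -0.02, 0.23, 0.23 and 0.43 beside -0.02. Of the 14 ERK-responsive genes 8 were higher and 5 lower, with Plaur at 2.47 and Fos at -2.12, beside 72% of all genes. Across settings these medians lay at -0.044 to 0.19, 0.19 to 0.44, 0.19 to 0.44 and 0.38 to 0.64. Less the median of all genes they lay at -0.077 to 0.021, 0.17 to 0.28, 0.17 to 0.28 and 0.37 to 0.47. In normoxia-hyperoxia against 24 h controls the medians were -0.12, -0.16, -0.18 and 0.13 beside 0.00. Fos was at 3.68, Errfi1 at 1.24 and Adam12, a metalloprotease, at -2.15. Across settings these medians lay at -0.29 to -0.094, -0.33 to -0.12, -0.345 to -0.14 and -0.036 to 0.20. Of 14 ERK-responsive genes, 7 were higher and 4 to 7 lower across settings, beside 68.2% of all genes that passed in the main fit. With the drugs, 0 of the 61 genes of these lists passed by edgeR in any of the 4 comparisons. Among all genes, 0% and 1.38% passed with tunicamycin at 6 h and 24 h, and 0% at both times with cyclosporin A. An unadjusted p under 0.05 by edgeR was reached by 0 and 10 of the 61 with tunicamycin and by 4 and 9 with cyclosporin A. Among all genes it was reached by 281 of 16551, 2174 of 16905, 734 of 16538 and 1107 of 16887. DESeq2 called 0, 1, 0 and 1 of the 61, beside 0, 527, 51 and 22 of all genes.

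**Figure D5:**
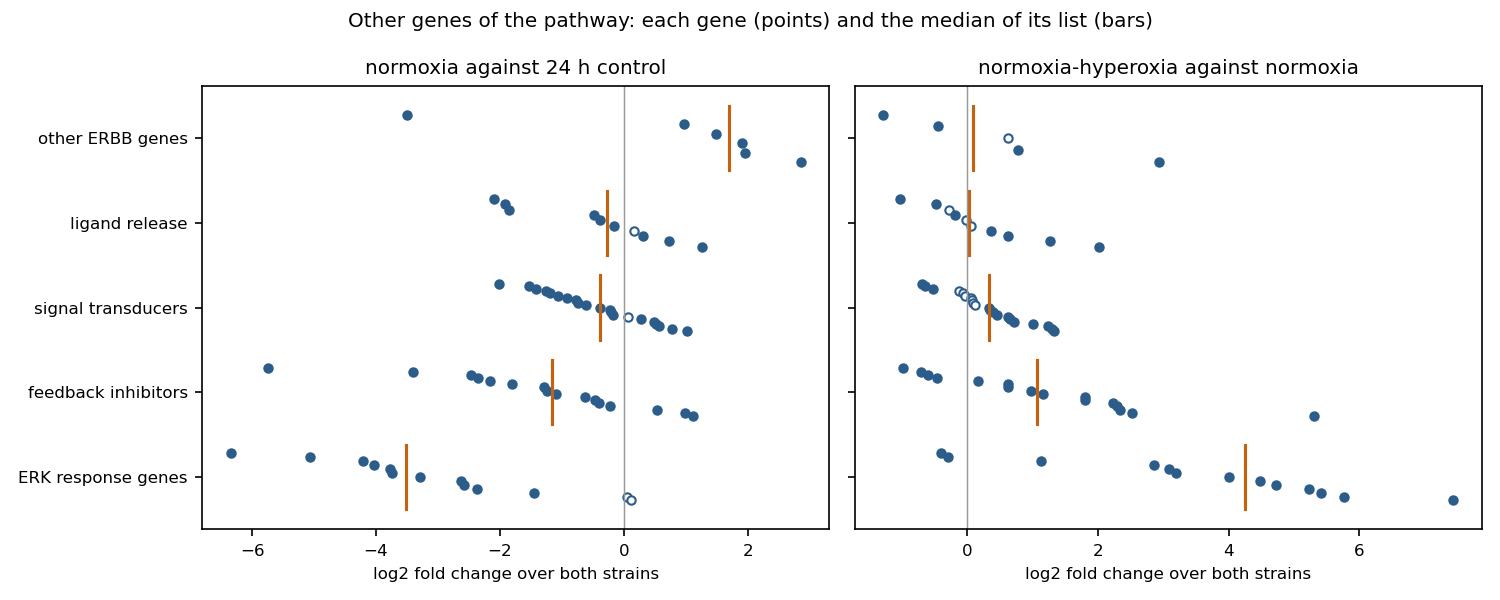
Log2 fold changes over both strains of the listed pathway genes by role; filled points had an adjusted p under 0.05, bars are list medians, and genes with a group at or under 3 counts are not drawn. The ERK-responsive genes have medians of -3.52 in normoxia against 24 h control and 4.24 in normoxia-hyperoxia against normoxia.

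Markers of the cell types in a slice moved with the same conditions. Sums of 6 proximal tubule markers were at 2186 to 6509 CPM in 6 h controls, 341 to 1856 CPM in 24 h controls, 4121 to 12897 CPM in normoxia and 123 to 817 CPM in normoxia-hyperoxia. Of these 6 markers, 6 were lower at 24 h than at 6 h (median -2.67), 6 higher in normoxia than in 24 h controls (median 3.67) and 6 lower in normoxia-hyperoxia than in normoxia (median -4.61). The 5 loop and distal tubule markers, whose cells make Egf, summed to 6629 to 12658 CPM at 6 h, 1969 to 5041 CPM at 24 h, 3811 to 16086 CPM in normoxia and 11510 to 19719 CPM in normoxia-hyperoxia. The 6 urothelial markers summed to 0.725 to 2.13 CPM at 6 h, 3.63 to 6.94 CPM at 24 h, 1.56 to 3.17 CPM in normoxia and 1.07 to 2.35 CPM in normoxia-hyperoxia. Of these, 3 could be tested with time in culture and 2 were higher at 24 h, while Upk1b, Upk2 and Upk3a were at 0 in both 24 h control groups. Endothelial markers summed to 669 to 1355 CPM at 6 h, 581 to 1338 CPM at 24 h, 291 to 790 CPM in normoxia and 940 to 1353 CPM in normoxia-hyperoxia. Of these 5 markers, 1 was higher and 3 were lower at 24 h than at 6 h (median -0.66, from -1.54 to 0.67). Some marker sums were apart between the strains, but not always where members differed. In both drug arms at 6 h the podocyte and endothelial sums were apart, while the proximal tubule sums and the loop and distal sums overlapped. With tunicamycin at 6 h, proximal tubule markers were at 1963 to 4260 CPM in C57BL/6J against 4027 to 6932 CPM in DBA/2J. Several sums were apart in 24 h controls, where Egfr, Areg and Tgfa did not differ by the test. In 6 h controls, where Areg and Tgfa differed, proximal tubule markers were at 2186 to 4513 CPM in C57BL/6J against 5582 to 6509 CPM in DBA/2J, loop and distal markers at 11215 to 12658 against 6629 to 8992 CPM, and podocyte markers at 2145 to 2297 against 1574 to 1805 CPM. Collecting duct, endothelial and immune sums were apart there too, and stromal sums overlapped. In normoxia, where Egfr and Tgfa differed, proximal tubule markers had a mean of 5707 CPM in C57BL/6J against 11905 CPM in DBA/2J, loop and distal markers 13808 against 4448 CPM, and collecting duct markers 673 against 345 CPM. Podocyte, endothelial, stromal and immune sums were also apart in normoxia, with means of 1068 against 605, 666 against 399, 152 against 59.5 and 123 against 94.8 CPM. In normoxia-hyperoxia the means of proximal tubule, loop and distal, and collecting duct markers were 155 against 662 CPM, 15437 against 12974 CPM and 991 against 745 CPM. Loop and distal markers thus went from 4448 to 12974 CPM between the oxygen conditions in DBA/2J and from 13808 to 15437 CPM in C57BL/6J. Immune markers in normoxia-hyperoxia were at 112 to 139 CPM in C57BL/6J against 219 to 264 CPM in DBA/2J, while podocyte and endothelial sums overlapped. The share of counts from mitochondrial genes was 14.8% to 16.3% in C57BL/6J and 8.05% to 8.32% in DBA/2J at 6 h, and 5.96% to 7.87% and 3.39% to 3.602% at 24 h. It was 22.8% to 25.6% and 11.8% to 12.8% in normoxia, and 12.2% to 16.6% and 10.98% to 17.4% in normoxia-hyperoxia. The part of the markers and of the mitochondrial share in the members' levels and strain differences was not tested.

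Across the 48 libraries, Egfr and Areg had the highest correlation of any pair of members on the log2 CPM scale (Pearson 0.904, Spearman 0.882). Areg and its neighbour Ereg had 0.72 and 0.794, and Egfr and Ereg 0.764 and 0.794. Ereg had 0 counts in all 12 oxygen libraries and few at 6 h. Its correlations, also those with its nearest genes, are limited by these values at or near the floor. Hbegf and Areg had 0.635 by Pearson and -0.236 by Spearman, with both low in the normoxia libraries. Btc had negative values with each of the 5 other members compared. Among 12329 expressed genes, the nearest to Egfr were Srfbp1 (0.961), Sars (0.952) and Atp13a3 (0.947), and the nearest to Hbegf were Mafk (0.988), Vcl (0.985) and Csrnp1 (0.984). Ankrd37 (0.967) and Il11 (0.958) were among the nearest to Areg, and Tpm3 (0.922), Rhbdl2 (0.917) and F2rl1 (0.914) to Tgfa. Those near Ereg included Ppp1r11 (0.917) and Eef1b2 (0.913), and the nearest to Btc were Tnrc6a (0.702), Naa40 (0.663) and Rbm5 (0.657). These are Pearson values over libraries that share conditions, given as a description.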

How the data were processed

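The deposited table holds raw counts per gene for 48 libraries, made by the authors; the submitters' processing notes name bcl2fastq 2.20.0, FastQC 0.11.8, STAR 2.7.9a, featureCounts 1.5.1 and GRCm38, and per the labels' protocols the libraries came from a stranded mRNA kit. The strand setting and annotation release are not given in the sources used here. Ensembl identifiers were matched to symbols and exon lengths through GENCODE M21 (55141 of 55487 matched), and promoters came from RefSeq. No 2 columns were identical.

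Each of 9 comparisons was fitted on its own 4 groups (12 libraries) with edgeR 4.0.16 in R 4.3.3: TMM factors, filterByExpr, robust quasi-likelihood tests, and Benjamini-Hochberg adjustment over all tested genes, with contrasts for both strains, each strain and their difference. The script was tested on simulated counts. Counting ratios are exact conditional 95% intervals; a floor of 3 counts per library was used for groups at 0. Correlations used log2 CPM with a prior count of 2. All members were to be named, and the 8 other family genes over both strains were eligible; of each other list, the 3 genes with the largest change among those that passed with a mean log2 CPM of at least 1 were eligible. For correlations, the 3 nearest genes were eligible, passing over predicted genes; some are not reported here. The members and lists were chosen with earlier results of these data known. Alternatives were RLE factors, library totals, no filter, DESeq2 1.42.0, a single fit of 48 libraries, a replicate block and leaving out each library.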

Additional observations from a re-analysis of the deposited data

Results flagged for a closer look

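For Areg, Egfr and Tgfa a difference between the 2 strains' responses passed the test of the difference itself (DBA/2J minus C57BL/6J, edgeR interaction term); only those of Egfr did so with each of the 12 libraries left out in turn. For Areg the difference in the log2 change with time in culture was -1.82, lost in 6 of 12 such fits and with the replicate block, and that in normoxia-hyperoxia against 24 h control was 1.61, lost in 9. For Egfr it was 0.93 in normoxia against 24 h control and -0.83 in normoxia-hyperoxia against normoxia. For Tgfa it was -0.76 in normoxia against 24 h control, lost in 6. The libraries are named with each result above. Of all genes, 0.69% and 1.43% passed the 2 contrasts given for Areg, 17% and 18.2% those given for Egfr, and 17% that given for Tgfa. The 2 differences of Areg share the 24 h controls, and those of Egfr share the normoxia libraries.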

How the results depend on the processing

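Of the 25 member effects over both strains that passed, 24 kept their direction and call under all alternatives run, the exception being Btc in normoxia-hyperoxia against 24 h control; of the 25 that did not pass, 16 kept their direction and stayed short of the threshold throughout. Of 21 strain differences of members that passed, in level or in response, 10 kept direction and call under all of them; those of the drug slices were added after seeing the data. Group mean CPM with TMM factors moved by over 1 SD for 22 of 112 values, and ligand shares on the longest transcript for 37 of 96. The number of members with a strain difference in response was less stable. For time in culture it was 1 and became 0 with the replicate block and 0 to 2 with a library left out. For normoxia against 24 h control it was 2 and ranged from 1 to 2, and for normoxia-hyperoxia against 24 h control it was 1 and ranged from 0 to 1. For normoxia-hyperoxia against normoxia it was 1, became 2 under library totals and in the single fit, and ranged from 1 to 2. For normoxia against 6 h control it was 0, became 1 without the filter, by DESeq2, in the single fit and with the block, and ranged from 0 to 1; Egfr was then at 0.66, 0.70, 0.71 and 0.71. Members differing between strains in 24 h controls went from 1 to 0 by DESeq2 and 0 to 1 with a library left out, and in normoxia-hyperoxia from 2 to between 1 and 2. The cause was not tested.

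Signs of members and named list genes turned only for values that did not pass. Some list medians turned as well. That of the release genes lay between -0.044 and 0.19 with time in culture and between -0.029 and 0.12 between the oxygen conditions. That of the ERK-responsive genes lay between -0.036 and 0.20 in normoxia-hyperoxia against 24 h control. Btc between the oxygen conditions was 0.042 under library totals and ranged from -0.34 to 0.071 with a library left out. With tunicamycin such ranges were -0.10 to 0.091 for Egfr and -0.013 to 0.20 for Hbegf at 6 h, and -0.45 to 0.082 for Ereg and -0.035 to 0.081 for Hbegf at 24 h. With cyclosporin A at 24 h they were -0.24 to 0.36 for Ereg and -0.013 to 0.11 for Hbegf. Nrg1 with time in culture was -0.0098 and ranged from -0.12 to 0.13 with a library left out; it was 0.00021 with RLE factors, 0.21 under library totals, 0.0091 in the single fit and 0.0066 with the block.

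Replicate numbers were shared by all groups. Same-numbered libraries deviated together only in part (mean correlation over 6 pairs from 0.014 for time in culture to 0.179 for normoxia against 6 h control), and in no comparison were all 6 over 0.1. The labels do not say that a number marks a shared mouse or day. In normoxia against 6 h control all 6 libraries correlated best with their own number. The block ended the Areg difference with time (-1.79) and added Tgfa in normoxia-hyperoxia against 24 h control (-0.25) and the Egfr difference in normoxia against 6 h control (0.71).

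Over all genes, calls moved by over 1.5 times as follows. Tunicamycin at 24 h went from 233 to 395 without the filter, 527 by DESeq2 and 78 to 344 with a library left out. Cyclosporin A went from 0 to 4 and 51 at 6 h (0 to 1 with a library left out), and from 0 to 3, 22 and, in the single fit, 3 at 24 h. Strain differences in response went from 117 to 817, 360, 71 with the block and 46 to 226 for time in culture; from 247 to 1156, 686, 409 in the single fit, 618 with the block and 103 to 524 for normoxia-hyperoxia against 24 h control; from 616 to 1536, 1181, 1462 with the block and 241 to 1125 for normoxia against 6 h control; from 2956 to 1860 to 2700 for normoxia against 24 h control; and from 0 to 1 for tunicamycin at 6 h. Depth limits Ereg, Epgn and normoxic Areg, which are at few counts.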
